A study of Homo sapiens with 9 samples.

Results

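The genes described here encode 10 collagen chains that do not build the large banded fibrils themselves but attach to them, span between them or form networks and filaments beside them. They were COL6A1, COL6A2 and COL6A3 (beaded filaments), COL8A1 and COL10A1 (networks), COL7A1 (anchoring fibrils) and COL9A2, COL12A1, COL16A1 and COL21A1 (fibril-associated collagens). They were picked by gene symbol from the 27111 genes of the expression tables, and all 10 were among the 17108 genes with enough reads to be tested. The RNA came from PC3 cells, an epithelial line from a human prostate cancer metastasis, which had been stably transduced with lentivirus and selected with puromycin. The Empty line carried the vector without an insert and served as control. The NF-YAl and NF-YAs lines over-expressed the long and the short splice isoform of NF-YA, introduced as the murine sequence per the study. NF-YA is the subunit of the trimeric transcription factor NF-Y that recognizes the CCAAT box. All lines were grown as multicellular tumor spheroids (MTSs) in medium with Matrigel, itself a basement membrane extract, and each of the 3 groups gave 3 libraries, lettered A, B and C, or A, B and D for NF-YAl. Each group is 1 transduced line, so that an effect of the isoform and a difference between lines cannot be told apart.

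Collagen VI is assembled inside the cell from an alpha-1, an alpha-2 and an alpha-3 chain, and its tetramers join end to end outside the cell into beaded microfilaments that surround cells and link them to basement membranes. Fibril-associated collagens carry interrupted triple helices, lie on the surface of banded fibrils and reach out from them with large non-collagenous domains. Network-forming collagens VIII and X build sheets and hexagonal lattices, the first around vessels and beneath endothelia, the second in cartilage that is about to mineralize, whereas collagen VII forms the anchoring fibrils that tie epithelial basement membranes to the stroma. Collagens VI and XII are made mainly by mesenchymal cells and are abundant in the stroma of tumors.

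Because NF-Y binds CCAAT, the stretches around the transcription starts were read for this word. RefSeq windows from 250 bases before to 50 bases after a start (GRCh38.p14) were found for 8 of the 10 genes, 12 windows in all; COL6A1 and COL8A1 had no entry. The letters CCAAT, searched on both strands, so also as ATTGG, with no other motif searched, stood in 2 of the 12 windows, against 34.6% of the 35116 windows of the same length. Both belonged to COL10A1, which has 3 windows. They are shown with the windows of COL9A2, which had the largest fold change, and of COL6A2 and COL6A3, which encode partner chains of 1 molecule but had log2 fold changes of opposite sign in NF-YAl MTSs. Each is written 5′ to 3′ on the strand of the gene, with a CCAAT match and the first transcribed base in capitals. The windows of COL10A1 lie at chr6:116126083-116126382 and chr6:116158723-116159022 on the minus strand, with the match 122 and 154 bases before the start. The others lie at chr1:40317237-40317536 on the minus strand (COL9A2), chr21:46097862-46098161 on the plus strand (COL6A2) and chr2:237414115-237414414 on the minus strand (COL6A3).
COL10A1, window with CCAAT 122 bases before the start: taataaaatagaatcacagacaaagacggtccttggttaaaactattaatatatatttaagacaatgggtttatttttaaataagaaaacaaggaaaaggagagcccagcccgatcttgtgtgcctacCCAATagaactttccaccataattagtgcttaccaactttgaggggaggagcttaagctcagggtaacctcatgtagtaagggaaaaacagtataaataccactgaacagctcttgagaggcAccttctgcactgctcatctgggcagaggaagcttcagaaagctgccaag
COL10A1, window with CCAAT 154 bases before the start: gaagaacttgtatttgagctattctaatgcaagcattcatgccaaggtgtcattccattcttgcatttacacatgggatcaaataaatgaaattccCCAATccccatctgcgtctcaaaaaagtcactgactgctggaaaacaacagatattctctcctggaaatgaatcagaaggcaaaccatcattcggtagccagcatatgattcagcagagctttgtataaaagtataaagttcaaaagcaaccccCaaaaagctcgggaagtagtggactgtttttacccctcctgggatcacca
COL9A2: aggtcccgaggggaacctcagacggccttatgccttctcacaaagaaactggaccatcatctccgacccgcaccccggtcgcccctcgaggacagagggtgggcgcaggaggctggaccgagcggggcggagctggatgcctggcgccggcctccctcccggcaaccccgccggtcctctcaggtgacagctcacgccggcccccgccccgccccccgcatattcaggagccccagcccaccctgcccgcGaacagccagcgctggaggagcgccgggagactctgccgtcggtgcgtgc
COL6A2: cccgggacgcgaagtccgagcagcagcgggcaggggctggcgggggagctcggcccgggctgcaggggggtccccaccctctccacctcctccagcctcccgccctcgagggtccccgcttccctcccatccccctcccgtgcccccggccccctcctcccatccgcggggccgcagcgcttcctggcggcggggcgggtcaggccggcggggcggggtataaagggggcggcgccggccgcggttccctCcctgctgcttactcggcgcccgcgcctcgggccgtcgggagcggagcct
COL6A3: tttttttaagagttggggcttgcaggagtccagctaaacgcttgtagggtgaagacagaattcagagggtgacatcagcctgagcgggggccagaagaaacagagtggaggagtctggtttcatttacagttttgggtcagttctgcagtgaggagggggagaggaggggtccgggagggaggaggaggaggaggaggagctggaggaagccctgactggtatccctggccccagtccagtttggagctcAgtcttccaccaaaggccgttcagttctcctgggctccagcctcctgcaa
The windows differed widely in base composition. GC content was 79.3% for COL6A2, 73.7% for COL16A1, 71.7% for COL9A2, 63.3% for COL12A1, 62.3% for COL7A1 and 56.3% for COL6A3, against a median of 58.7% over all windows. It was 32.3% to 41.0% in the 3 windows of COL10A1 and 38.0% to 58.3% in the 3 windows of COL21A1. The windows without CCAAT lack only these letters in this stretch, and a match is not a site of binding.

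The libraries held 18076979 to 27163976 expected counts, with 20072 to 20717 genes detected. NFYA itself had a level of 89.2 to 96.7 CPM in the Empty libraries, 287 to 383 CPM in the NF-YAl and 254 to 264 CPM in the NF-YAs libraries (CPM, counts scaled to the library size by the TMM method of edgeR), so that all NF-YA libraries stood over all Empty libraries. This gene total does not check the long against the short isoform, nor the introduced sequence against the cell's own gene. The introduced sequence was murine and the reads were aligned to human transcripts. How fully its reads were counted was not tested. NF-YAl D stood furthest from its group, with a chi-square per gene of 90.0 and 73.4 against NF-YAl A and B, where the 3 NF-YAs pairs had 6.20 to 10.6. Empty A also stood apart, at 49.0 and 49.5 against Empty B and C, which had 11.3 between them, and it had the highest share of ribosomal RNA counts (7.71%, against 2.66% to 5.27% in the others). The calls that changed without Empty A are given with COL6A3, COL16A1 and COL21A1. In NF-YAl D, TPM (transcript levels per length, scaled to a common sum) also ran high for the CPM: COL6A1 was at 1046 TPM and 2152 CPM in NF-YAl D but at 622 TPM and 2394 CPM in NF-YAl B. Fold changes between groups are therefore given on CPM. TPM serves for levels between genes, for ratios and shares within a library, and for the marker sums and COL8A2. The TPM levels and sums of NF-YAl include this shift of NF-YAl D.

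Per length, the chains of collagen VI were the most abundant of the 10 in every group. In Empty MTSs, COL6A1 had 286 ± 32.5 TPM and COL6A2 245 ± 29.1 (SD, n = 3), which overlapped, followed by COL6A3 with 39.9 ± 3.56 and COL12A1 with 9.52 ± 2.66. The other genes had 0.233 to 2.42 TPM there, with COL9A2 and COL21A1 at the bottom and not separated from each other. In NF-YAs MTSs, COL6A2 (1483 ± 44.2) and COL6A1 (1292 ± 90.5) led again, without overlap, then COL6A3 (77.2 ± 10.6), COL12A1 (28.0 ± 2.59) and COL9A2 (13.2 ± 1.44), which no longer stood at the bottom. In NF-YAl MTSs, COL9A2 came next after COL6A3 with 16.3 ± 3.05 TPM and overlapped COL12A1 (14.9 ± 5.63), whereas COL16A1 (1.10 ± 0.186) and COL21A1 (1.13 ± 0.539) were lowest and overlapped.

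**Figure D1:**
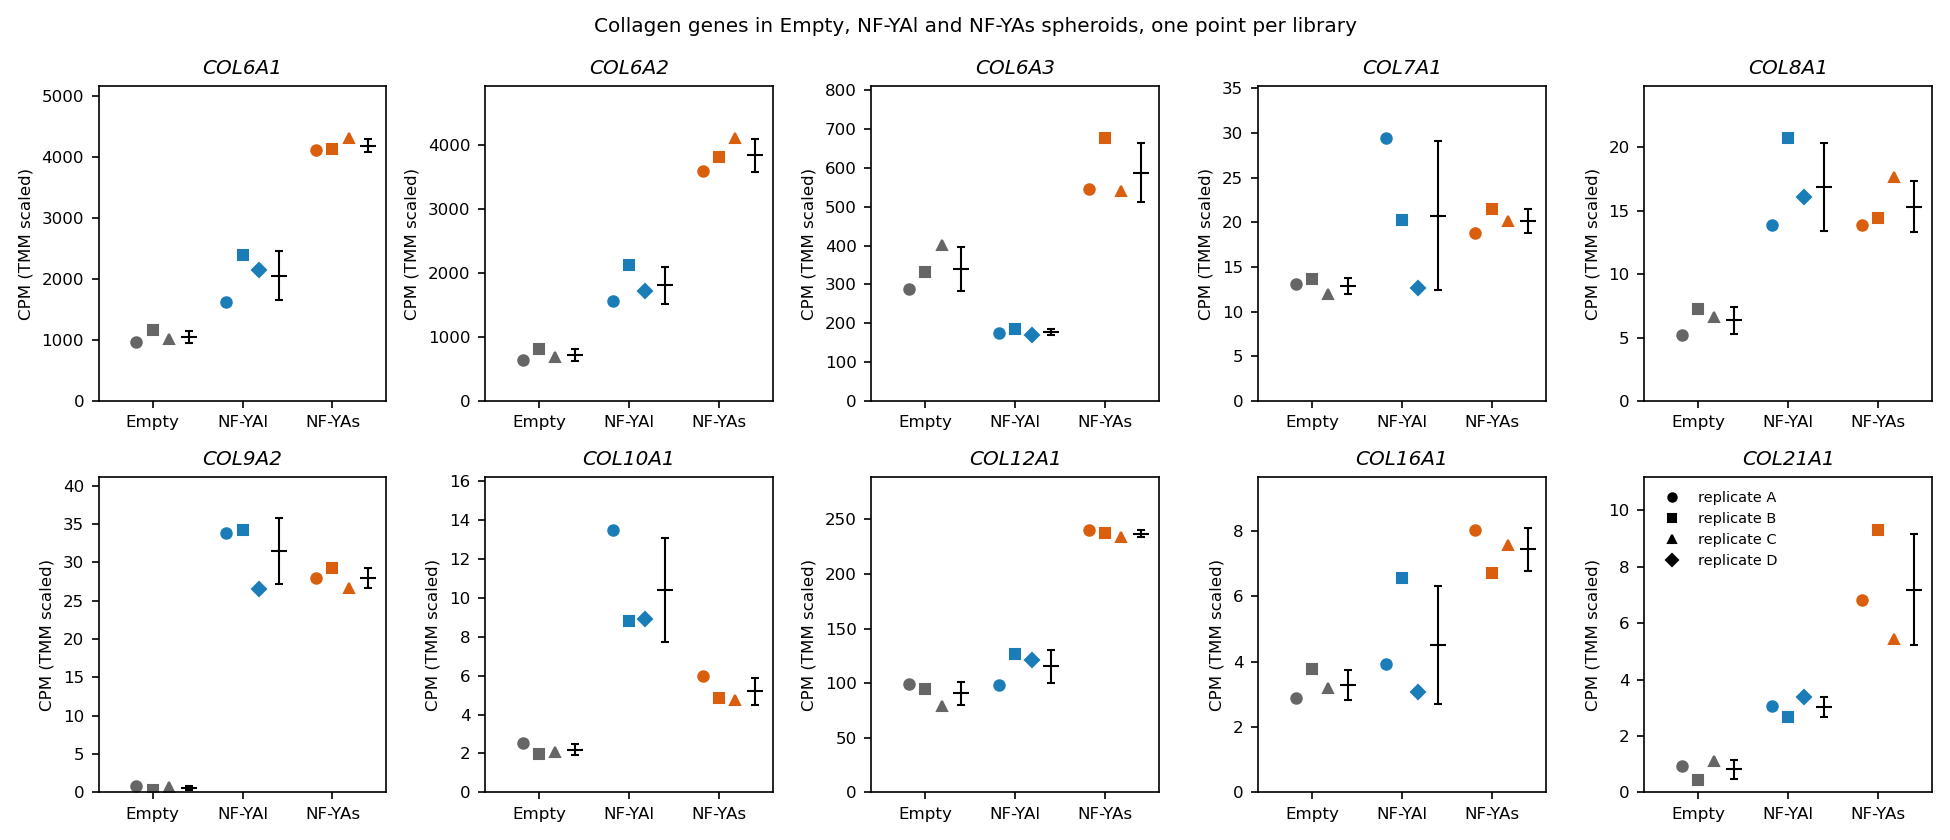
CPM (TMM scaled, linear axis from 0) of the 10 collagen genes, 1 panel per gene, for the Empty, NF-YAl and NF-YAs libraries. Points are single libraries with the shape giving the replicate letter. The black bar beside each group is the mean ± SD (n = 3). COL9A2 lies under 1 CPM in all Empty libraries and at 26.49 CPM or more in all others, and COL6A3 is lowest in NF-YAl.

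To ask which of these chains followed NF-YA over-expression, each line was compared with Empty and the lines with each other in 1 edgeR fit over all 9 libraries. A gene was called up- or down-regulated at an adjusted p under 0.01 and a log2 fold change (log2FC) beyond 1 in size. In NF-YAl against Empty MTSs, 5 of the 10 genes were up-regulated (COL6A2, COL8A1, COL9A2, COL10A1 and COL21A1), where 4.76% of all tested genes were, and none was down-regulated, where 3.50% were. In NF-YAs against Empty MTSs, 8 were up-regulated, all but COL6A3 and COL7A1, against 5.44% of all genes, and none was down-regulated, against 3.90%. In NF-YAl against NF-YAs MTSs, 1 gene was higher (COL10A1, background 1.74%) and 5 were lower (COL6A1, COL6A2, COL6A3, COL12A1 and COL21A1, background 2.86%). The median log2FC of the 10 genes was 1.16 in NF-YAl and 1.33 in NF-YAs over Empty, and -0.87 between NF-YAl and NF-YAs, beside 0.01, -0.00 and 0.02 over all tested genes. The genes were gathered with results of these libraries known, so that these counts describe them and are not independent evidence of a direction. At an unadjusted p under 0.05 (edgeR), 8 genes were higher and 1 was lower in NF-YAl than in Empty. In NF-YAs, 10 were higher and 0 lower than in Empty at this limit, for which the share of all tested genes was not computed. DESeq2, at the criteria for a call, found 0 lower in either line. The comparisons with Empty use the same Empty libraries.

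By the adjusted p alone, 6 genes were higher and 1 was lower in NF-YAl than in Empty (background 10% and 9.54%), 9 were higher and none lower in NF-YAs than in Empty (12.1% and 10.5%), and 1 was higher and 5 were lower in NF-YAl than in NF-YAs (4.70% and 6.25%). The genes gained were COL6A1 and COL6A3 in NF-YAl and COL6A3 in NF-YAs. Of these counts, those between the lines depended most on 1 library. Without NF-YAl A, 1 gene in place of 5 was called lower in NF-YAl than in NF-YAs, with the log2FC of COL6A1, COL6A2 and COL12A1 at -0.88, -0.99 and -0.93, just inside the limit, and COL21A1 at an adjusted p of 0.0104 (edgeR).

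**Figure D2:**
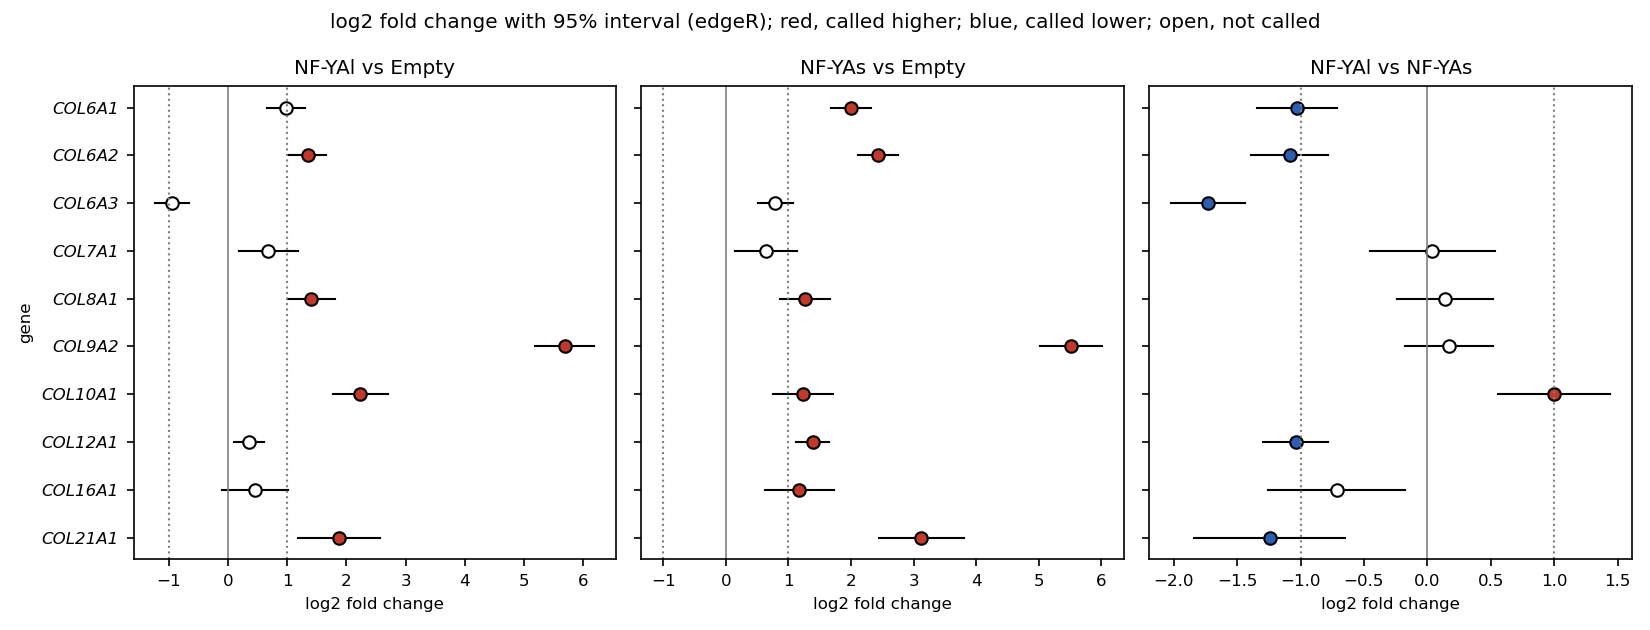
The log2FC of each gene (points) with its 95% interval (lines) from edgeR in the 3 comparisons, on 3 horizontal axes of different range, with dotted lines at the limits of -1 and 1. Red points were called higher, blue points lower and open points not called; COL9A2 stands apart at 5.69 and 5.52 over Empty, and COL6A3 lies left of 0 in NF-YAl over Empty but right of 0 in NF-YAs over Empty.

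COL6A1, on chromosome 21 (47401684 to 47424964, GRCh37), encodes the alpha-1 chain of collagen VI. Empty A, B and C had 959, 1155 and 1016 CPM, NF-YAl A, B and D had 1616, 2394 and 2152 CPM, and NF-YAs A, B and C had 4114, 4126 and 4300 CPM. The groups did not overlap, with NF-YAs highest and Empty lowest. It was up-regulated in NF-YAs 4.01-fold (log2FC 2.0, SE 0.149, adjusted p = 2.28e-06, edgeR). In NF-YAl its log2FC of 0.98 (SE 0.145, adjusted p = 0.000325, edgeR) fell just short of the fold limit, and it passed at 1.06 without Empty B and at 1.12 without NF-YAl A. Between the lines it was lower in NF-YAl (log2FC -1.03, SE 0.145, adjusted p = 0.000525, edgeR), and at -0.88 it was no longer called without NF-YAl A.

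COL6A2, its neighbor at 47518026 to 47552762 on the same strand, encodes the alpha-2 chain and went the same way. The Empty libraries had 639, 816 and 679 CPM, the NF-YAl libraries 1567, 2129 and 1723, and the NF-YAs libraries 3600, 3807 and 4100, again without overlap. It rose 2.54-fold in NF-YAl (log2FC 1.34, SE 0.142, adjusted p = 2.96e-05, edgeR) and 5.39-fold in NF-YAs (log2FC 2.43, SE 0.147, adjusted p = 5.34e-07, edgeR). The difference between the lines came to a log2FC of -1.09 (SE 0.141 and adjusted p = 0.000301 in edgeR), and without NF-YAl A it was -0.99 and missed the limit. The gene pair stood out from its surroundings: the tested genes around COL6A2, 59 in number near the end of the chromosome, had median log2FCs of 0.00 in NF-YAl and -0.07 in NF-YAs over Empty.

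COL6A3, on chromosome 2 (238232646 to 238322971), encodes the alpha-3 chain, the largest of the 3 and the one whose C-terminal fragment is known as endotrophin. Its level in the Empty libraries was 288, 332 and 400 CPM, in the NF-YAl libraries 176, 185 and 171, and in the NF-YAs libraries 545, 676 and 542. The 3 groups did not overlap, with NF-YAl under and NF-YAs over Empty. Neither difference from Empty passed the fold limit: the log2FC was -0.94 in NF-YAl (95% interval -1.23 to -0.66) and 0.79 in NF-YAs (0.51 to 1.07), at adjusted p-values of 0.000209 and 0.000588 (edgeR). Without Empty A, the first was -1.03 and passed. Between the lines, COL6A3 was 3.32-fold lower in NF-YAl (log2FC -1.73, SE 0.133, adjusted p = 1.33e-05, edgeR), the largest difference between the lines among the 10 genes, and it was called without any 1 library.

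Since the chains join in 1 molecule, their ratios were taken within each library on TPM. The ratio of COL6A3 to COL6A1 in Empty A, B and C was 0.131, 0.123 and 0.169. NF-YAl A, B and D had ratios of 0.0467, 0.0330 and 0.0336, and NF-YAs A, B and C of 0.0562, 0.0697 and 0.0537. Transcripts of the alpha-3 chain were thus scarcer relative to those of alpha-1 in every library of either line than in every Empty library. The mean log2 ratio differed from Empty by -1.91 in NF-YAl and -1.23 in NF-YAs, and by -0.67 between NF-YAl and NF-YAs. In each of these comparisons the groups did not overlap, which gave p = 0.1 in a two-sided exact permutation test, the smallest that 3 against 3 libraries allow (0.129 adjusted over 9 tests). The ratio of COL6A2 to COL6A1 moved less, from 0.838, 0.889 and 0.841 in the Empty libraries to 1.22, 1.12 and 1.01 in those of NF-YAl and 1.10, 1.16 and 1.19 in those of NF-YAs. It was higher than Empty in all libraries of both lines (p = 0.1, exact permutation test) and overlapped between the lines (p = 0.7, exact permutation test).

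**Figure D3:**
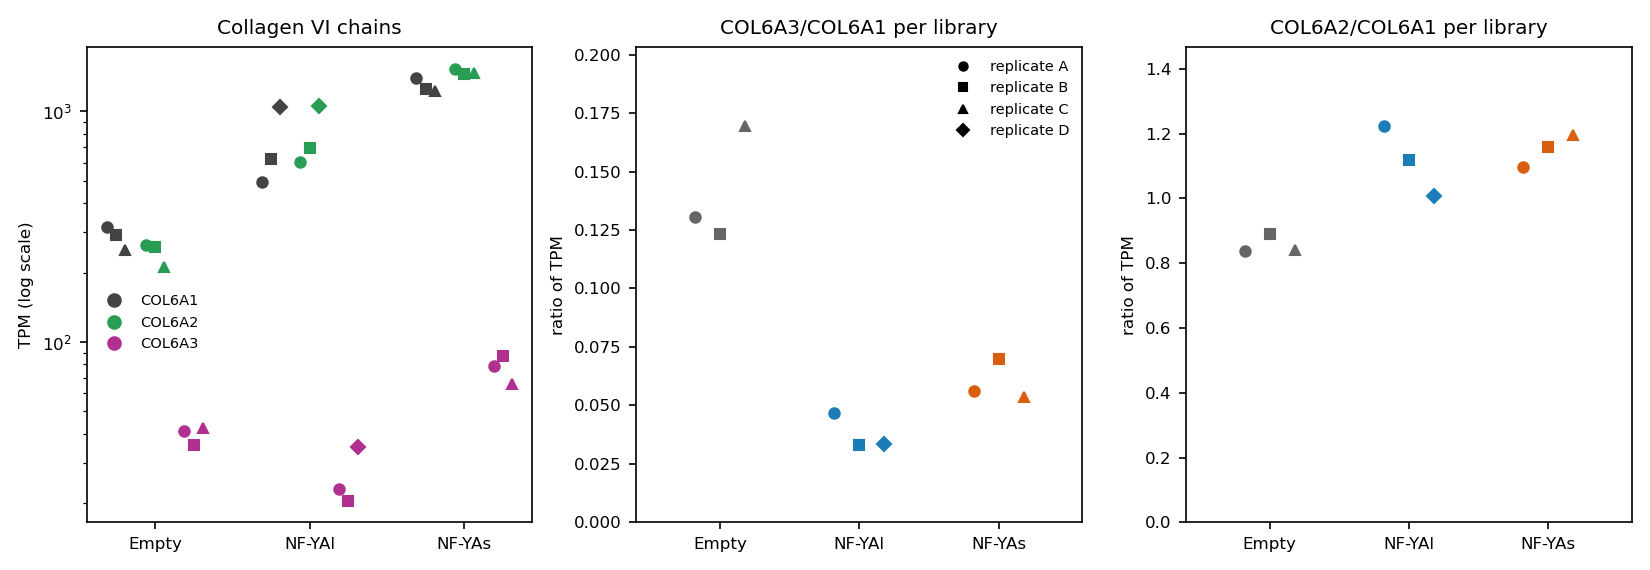
Left, TPM of COL6A1, COL6A2 and COL6A3 on a log axis; middle and right, the ratio of TPM of COL6A3 and of COL6A2 to COL6A1 on linear axes from 0, for each library of the 3 groups (shape, replicate letter). COL6A3 relative to COL6A1 is highest in the 3 Empty libraries, at 0.123 or more, and lowest in the 3 NF-YAl libraries, at 0.0467 or less.

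COL8A1, on chromosome 3 (99357319 to 99518070), encodes the alpha-1 chain of the network collagen VIII. Empty libraries A, B and C gave 5.20, 7.23 and 6.65 CPM, the NF-YAl libraries 13.8, 20.7 and 16.1, and the NF-YAs libraries 13.9, 14.4 and 17.6. Both lines lay over Empty and overlapped each other. It rose 2.65-fold in NF-YAl (log2FC 1.41, SE 0.182, adjusted p = 0.000124, edgeR) and 2.41-fold in NF-YAs (log2FC 1.27, SE 0.183, adjusted p = 0.000228, edgeR). No difference was shown between the lines (log2FC 0.14, 95% interval -0.24 to 0.52, adjusted p = 0.596, edgeR). Its partner chain gene COL8A2 was far less abundant, at 0.187 ± 0.0569 TPM in Empty, while NF-YAl had 0.463 ± 0.263 TPM and NF-YAs 0.467 ± 0.0321 TPM (SD, n = 3). It was up-regulated in NF-YAs (log2FC 1.16, SE 0.293, adjusted p = 0.00853, edgeR).

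COL10A1, on chromosome 6 (116440072 to 116479910), encodes the homotrimeric network collagen X of hypertrophic cartilage. The Empty libraries held 2.52, 1.99 and 2.09 CPM, the NF-YAl libraries 13.5, 8.79 and 8.91, and the NF-YAs libraries 5.98, 4.83 and 4.75. The groups did not overlap, and it was the only one of the 10 genes called higher in NF-YAl than in NF-YAs. It rose 4.71-fold in NF-YAl (log2FC 2.24, SE 0.215, adjusted p = 1.55e-05, edgeR) and 2.36-fold in NF-YAs (log2FC 1.24, SE 0.219, adjusted p = 0.000939, edgeR). Between the lines the log2FC was 1.0 (SE 0.202, adjusted p = 0.00447, edgeR), barely over the limit. That call was lost without NF-YAl A (log2FC 0.77), NF-YAs A (adjusted p = 0.0101, edgeR), NF-YAs B (0.0262) or NF-YAs C (0.0272). These values rest on 50 to 254 expected counts per library. COL10A1 lies opposite to NT5DC1, which overlaps it and had 217 to 357 counts with log2FCs of 0.25 and 0.12 over Empty, and whether counting used the strand was not stated. The 100 tested genes around COL10A1 had a median log2FC of 0.41 in NF-YAl and 0.22 in NF-YAs over Empty, the former the highest among the surroundings of the 10 genes (-0.15 to 0.41 in this comparison).

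COL7A1, on chromosome 3 (48601506 to 48632762), encodes the chain of anchoring fibrils and was called in no comparison. In the Empty libraries it stood at 13.1, 13.6 and 11.9 CPM, in the NF-YAl libraries 29.4, 20.2 and 12.7, and in the NF-YAs libraries 18.8, 21.4 and 20.2. The NF-YAl libraries spread widely and NF-YAl D lay within Empty, whereas all NF-YAs libraries were over Empty. The log2FC was 0.68 in NF-YAl (95% interval 0.18 to 1.18, adjusted p = 0.0383, edgeR) and 0.64 in NF-YAs (0.15 to 1.14, adjusted p = 0.0452, edgeR), and 0.04 between the lines (-0.45 to 0.53).

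COL9A2, on chromosome 1 (40766161 to 40783485), encodes the alpha-2 chain of collagen IX, which coats the collagen II fibrils of cartilage. It was nearly silent in Empty MTSs, with 0.839, 0.318 and 0.669 CPM from 20, 8 and 17 expected counts. It had 33.8, 34.2 and 26.5 CPM in NF-YAl and 28.0, 29.3 and 26.7 CPM in NF-YAs, from 519 to 837 counts. Every library of either line was thus far over every Empty library, and the lines overlapped. The fold change was 51.5 in NF-YAl (log2FC 5.69, SE 0.229, adjusted p = 7.76e-08, edgeR) and 45.8 in NF-YAs (log2FC 5.52, SE 0.229, adjusted p = 7.89e-08, edgeR). Between the lines the log2FC was 0.17 (95% interval -0.18 to 0.52, adjusted p = 0.472, edgeR). Leaving out 1 library at a time moved the log2FC over Empty between 5.38 and 5.99 in NF-YAl and between 5.21 and 5.81 in NF-YAs.

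Collagen IX needs an alpha-1 and an alpha-3 chain beside alpha-2, and in the NF-YA lines the genes of these had far lower levels than COL9A2. COL9A3 had mean levels of 0.454 CPM in Empty, 0.579 CPM in NF-YAl and 0.618 CPM in NF-YAs, with log2FCs of 0.32 (adjusted p = 0.639, edgeR) and 0.43 (adjusted p = 0.497, edgeR) over Empty. COL9A1 had too few reads to be tested, with mean CPM of 0.176, 0.621 and 0.351. On TPM, COL9A2 exceeded COL9A3 by 37.3 to 63.1 times in the NF-YAl libraries and by 27.0 to 64.6 times in the NF-YAs libraries, whereas the ratio was 0.571 to 2.47 in Empty. The groups of either line did not overlap with Empty (p = 0.1, exact permutation test, 0.129 adjusted over 9 tests).

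COL12A1, on chromosome 6 (75794042 to 75915983), encodes the homotrimeric collagen XII, which binds banded fibrils, tenascin-X and decorin. The Empty libraries had 99.1, 94.5 and 78.9 CPM, the NF-YAl libraries 98.1, 127 and 121, and the NF-YAs libraries 240, 237 and 234. The NF-YAs libraries were close together and over all others, and NF-YAl overlapped Empty. It rose 2.61-fold in NF-YAs (log2FC 1.38, SE 0.118, adjusted p = 5.76e-06, edgeR). In NF-YAl the log2FC was 0.35 (95% interval 0.09 to 0.60, adjusted p = 0.0388, edgeR). The direct difference was a log2FC of -1.04 (SE 0.117, adjusted p = 0.000114, edgeR), which came to -0.93 without NF-YAl A.

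COL16A1, on chromosome 1 (32117864 to 32169920), encodes the chain of collagen XVI, found close to basement membranes and thin fibrils. The annotated antisense gene PEF1-AS1, not analysed here, overlaps it. Its level in the Empty libraries was 2.89, 3.77 and 3.19 CPM, in the NF-YAl libraries 3.93, 6.54 and 3.08, and in the NF-YAs libraries 8.03, 6.72 and 7.56. NF-YAl overlapped Empty with NF-YAl B above the rest, and NF-YAs lay over all others. It rose 2.26-fold in NF-YAs (log2FC 1.18, SE 0.252, adjusted p = 0.0033, edgeR), on 69 to 164 counts. This call was lost without Empty A, Empty C, NF-YAs A or NF-YAs C, at adjusted p-values of 0.0136 to 0.0171 (edgeR) and log2FCs of 1.10 to 1.16. Between the lines the log2FC was -0.71 (95% interval -1.25 to -0.17, adjusted p = 0.0561, edgeR), and it was called at -1.09 without NF-YAl B (adjusted p = 0.00627, edgeR).

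COL21A1, on chromosome 6 (55921388 to 56258892), encodes collagen XXI, a fibril-associated chain found in vessel walls. Empty libraries A, B and C gave 0.923, 0.437 and 1.10 CPM, the NF-YAl libraries 3.08, 2.66 and 3.37, and the NF-YAs libraries 6.84, 9.31 and 5.44. The groups stood apart in this order, on 11 to 28 counts in Empty and 58 to 187 in the lines. It rose 3.68-fold in NF-YAl (log2FC 1.88, SE 0.318, adjusted p = 0.000806, edgeR) and 8.71-fold in NF-YAs (log2FC 3.12, SE 0.311, adjusted p = 1.66e-05, edgeR), the second largest change of the 10 genes in NF-YAs. The difference between the lines, a log2FC of -1.24 (SE 0.274, adjusted p = 0.00705, edgeR), lost its call without Empty A, NF-YAl A, NF-YAl B or any 1 of the NF-YAs libraries, at adjusted p-values of 0.0104 to 0.044 (edgeR), although NF-YAl remained lower each time.

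Transcript shares were compared for the 4 genes with several RefSeq transcripts and enough reads, as percent of the gene's TPM. They are estimates, since reads in common exons are divided by model. COL12A1 has a long form of 11579 bases and a short form of 8087 bases, which lacks part of the large N-terminal region. The short form made up 21.5%, 14.3% and 12% in Empty A, B and C. Its share was 11.9%, 15.5% and 5.11% in NF-YAl A, B and D, against 20%, 22.5% and 25.1% in NF-YAs A, B and C. The short form was higher in every NF-YAs than in every NF-YAl library (p = 0.1, exact permutation test, 0.225 adjusted over 27 tests) and overlapped with Empty in both lines.

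COL6A3 transcripts differ in which N-terminal von Willebrand factor A domains they encode. The 8760-base form took 42.4 ± 3.77% of COL6A3 TPM in Empty, but 35.3 ± 2.40% in NF-YAl and 33.6 ± 0.777% in NF-YAs (SD, n = 3). In the same order, the 9963-base form took 30.1 ± 1.96%, 37.3 ± 5.49% and 39.7 ± 1.97%. For both forms the libraries of each line lay apart from Empty (p = 0.1, exact permutation test, 0.225 adjusted), in opposite directions. The longest form, with 10581 bases, had 27.1 ± 2.12%, 27.4 ± 4.94% and 26.6 ± 1.76%. For COL6A2, the 3153-base form fell from 17.2 ± 0.400% in Empty to 13.5 ± 0.935% in NF-YAs without overlap (p = 0.1, exact permutation test), and was 18.6 ± 1.57% in NF-YAl. The 3439-base form of COL6A2 took 78.7 ± 0.147% in Empty, but 78.1 ± 1.44% in NF-YAl and 83.2 ± 0.955% in NF-YAs. The shares of COL8A1 spread widely within groups: its 3091-base form had 45.7 ± 22.8% in Empty, but 26.1 ± 22.9% in NF-YAl and 18.3 ± 7.85% in NF-YAs, the last without overlap with Empty (p = 0.1, exact permutation test).

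Genes that make, process and bind these collagens were followed in lists of general knowledge. Their counts are to be read beside the shares of all tested genes called higher (4.76% in NF-YAl and 5.44% in NF-YAs) and lower (3.50% and 3.90%) than Empty. Of 10 further chains of the same classes, 3 had enough reads to be tested. COL28A1, a beaded-filament-like chain, had 4 to 5 counts in Empty and rose in NF-YAl (log2FC 3.64, SE 0.407, adjusted p = 4.44e-05, edgeR) and in NF-YAs (log2FC 2.97, SE 0.425, adjusted p = 0.000216, edgeR). COL8A2 rose in NF-YAs as given above, and COL9A3 was not called. The chains COL6A5 and COL6A6, which can take the place of alpha-3 in collagen VI, stayed at a mean of at most 0.378 CPM and were not tested. None of the 3 was called between the lines by edgeR or DESeq2, with 0 at an unadjusted p under 0.05. The median log2FC of the 3 was 0.93 in NF-YAl and 1.16 in NF-YAs over Empty. This median covers only chains with enough reads, and the untested chains went both ways. COL20A1 fell from 9 to 14 counts per Empty library to 2 to 6 with NF-YAl and 2 to 3 with NF-YAs. On CPM its Empty libraries lay over all others. COL9A1 and COL19A1, also untested, lay over Empty in every library of both lines. The remaining untested chains overlapped Empty.

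Of the 21 tested genes for collagen modification and folding in the endoplasmic reticulum, 1 rose in NF-YAl and 1 in NF-YAs, a share near that of all tested genes. By edgeR and by DESeq2 none fell. At an unadjusted p under 0.05 (edgeR), 9 were higher and 3 lower in NF-YAl, and 6 were higher and 7 lower in NF-YAs. The share of all tested genes at this limit was not computed. P3H3, of the prolyl 3-hydroxylase family, rose in NF-YAs from 12.7 ± 2.03 to 32.4 ± 3.41 CPM (SD, n = 3; log2FC 1.35, SE 0.134, adjusted p = 1.6e-05, edgeR), and its log2FC of 0.97 in NF-YAl missed the limit. The gene that rose in NF-YAl was P4HA3, a prolyl 4-hydroxylase subunit, which had a mean of 2.74 CPM there and is named after its values were seen (log2FC 1.49, adjusted p = 0.00368, edgeR). DESeq2 called P4HA3 in NF-YAs as well. The list had median log2FCs of 0.18 and -0.14 over Empty, well under those of the collagens.

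Of 8 tested genes for procollagen processing, 1 fell in NF-YAl, ADAMTS14, with 20 to 43 counts in Empty and 3 to 9 in NF-YAl (log2FC -2.33, adjusted p = 0.00291, edgeR, named after its values were seen), and 1 rose in NF-YAs. The latter was ADAMTS3, a procollagen N-proteinase, with 4.89 ± 0.524 CPM in Empty, 8.84 ± 0.660 CPM in NF-YAl and 18.4 ± 2.79 CPM in NF-YAs (log2FC 1.91, SE 0.153, adjusted p = 3.78e-06, edgeR, in NF-YAs over Empty). TLL1, a tolloid-like C-proteinase, was higher in NF-YAl (62.3 ± 25.3 CPM) than in NF-YAs (23.9 ± 2.21 CPM), at a log2FC of 1.38 (SE 0.224 and adjusted p = 0.00121 in edgeR), and ADAMTS3 was lower (log2FC -1.06, SE 0.148, adjusted p = 0.000493, edgeR). The call for ADAMTS14 changed with the tool and the block, since DESeq2 and a fit with the replicate letters also called it in NF-YAs, and the latter no longer in NF-YAl, where it called TLL1 instead.

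Of 11 tested collagen receptors, 1 rose and 1 fell in each line. CSPG4, the NG2 proteoglycan that binds collagen VI, was at 12.7 ± 1.64 CPM in Empty, at 27.8 ± 4.08 CPM in NF-YAl and at 64.7 ± 5.06 CPM in NF-YAs (SD, n = 3). It rose by log2FCs of 1.13 (SE 0.135, adjusted p = 7.09e-05, edgeR) and 2.34 (SE 0.136, adjusted p = 4.55e-07, edgeR) and was lower in NF-YAl than in NF-YAs (log2FC -1.22, SE 0.130, adjusted p = 7.94e-05, edgeR). ITGA2, the alpha subunit of a collagen-binding integrin, fell from 259 ± 26.1 CPM to 104 ± 8.87 in NF-YAl and 114 ± 11.7 in NF-YAs, log2FCs of -1.32 (adjusted p = 7.39e-06, edgeR) and -1.18 (adjusted p = 1.22e-05, edgeR). The median log2FC of the receptors was -0.38 in NF-YAl and -0.47 in NF-YAs.

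Of 14 tested matrix partners, 3 rose and 1 fell in NF-YAl, and 3 rose and 3 fell in NF-YAs. SPARC, a collagen-binding matricellular protein, was at 294 ± 26.7 CPM in Empty, at 1540 ± 743 CPM in NF-YAl and at 731 ± 42.1 CPM in NF-YAs and rose in both lines (log2FC 2.39, SE 0.260, adjusted p = 3.68e-05, and 1.32, SE 0.251, adjusted p = 0.00159, edgeR). VWA1, a basement membrane protein that associates with collagen VI, rose by log2FCs of 1.15 (adjusted p = 0.00528, edgeR) and 1.56 (adjusted p = 0.000643, edgeR). TNC, the matrix glycoprotein tenascin-C, rose in NF-YAs (log2FC 1.48, SE 0.139, adjusted p = 1.09e-05, edgeR) and was lower in NF-YAl than in NF-YAs (log2FC -1.93, SE 0.141, adjusted p = 1.2e-05, edgeR). LAMB3, a laminin chain of epithelial basement membranes, fell in NF-YAl (log2FC -1.82, SE 0.178, adjusted p = 1.72e-05, edgeR). The genes that fell in NF-YAs were TNXB (log2FC -1.40), which encodes tenascin-X and has a near-identical partial copy, so that its reads are uncertain, MATN2 (log2FC -1.01) and BGN, which had 18 to 22 counts in Empty and 0 to 2 in NF-YAs. TNXB, MATN2 and BGN are named after their values were seen. Between the lines, SPARC and TNXB were higher and LAMB3 and TNC lower in NF-YAl.

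**Figure D4:**
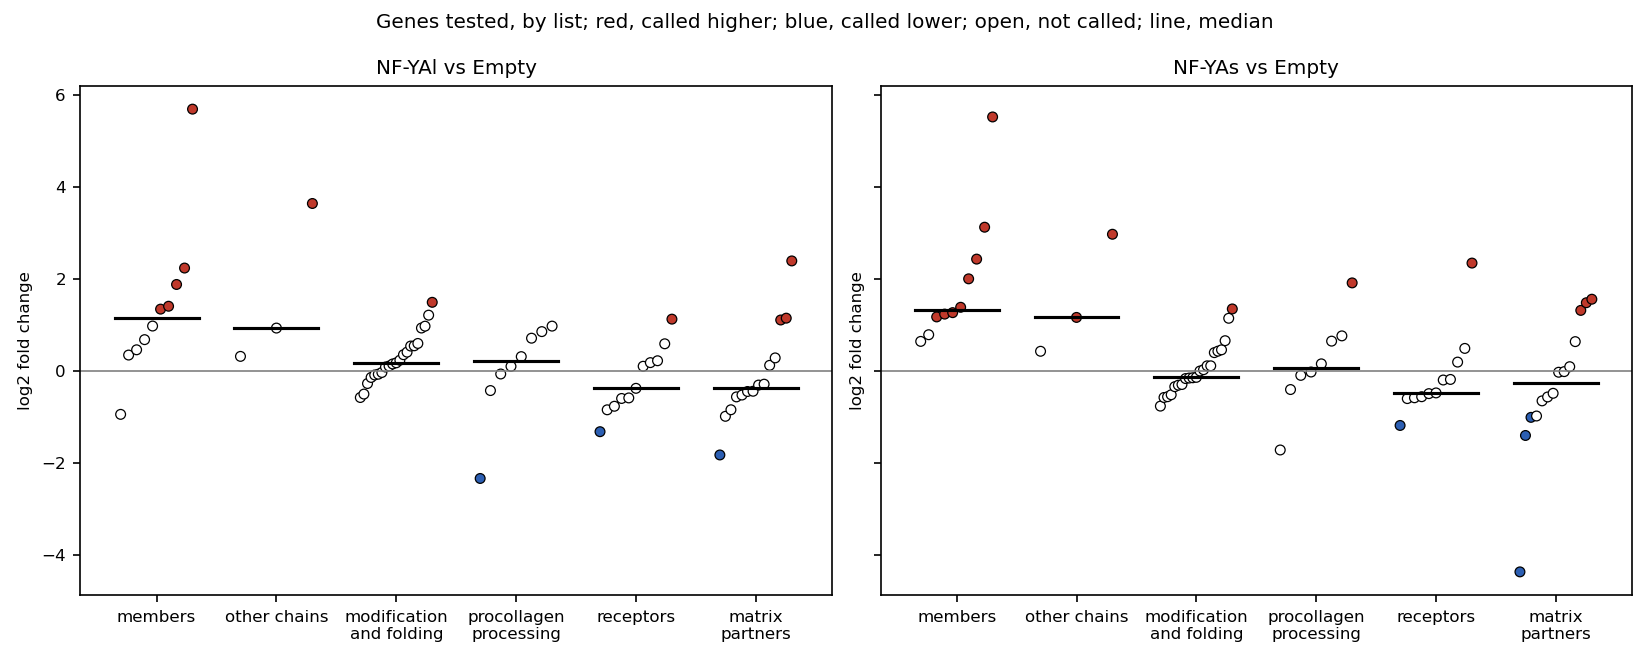
The log2FC over Empty of the tested genes of each list in NF-YAl (left) and NF-YAs (right) on a common axis, 1 point per gene, with the list's median as a line. Red points were called higher, blue points lower and open points not called; the medians of the 10 collagens are 1.16 and 1.33, and those of the modification, processing, receptor and matrix partner lists lie between -0.47 and 0.21.

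For each collagen, the genes with the most similar course over the 9 libraries were found by the root mean square difference of centered log2 CPM among genes of at least 5 CPM. COL6A2 was nearest to CSPG4 (0.148) and then to COL6A1 (0.206), and COL6A1 to LOC100130238 (0.089) and ARHGAP23 (0.166). COL6A3 was nearest to IL31RA (0.157) and NAV3 (0.182), with COL12A1 as nearest of the other collagens at 0.568. COL12A1 and COL16A1 were nearest to each other among the 10 (0.300), and outside them to MAP1A (0.129) and SH3PXD2A (0.210). COL9A2 had no close match, with OLFM2 at 0.486 and COL21A1, its nearest collagen here, at 1.56. For the others the nearest genes were CALCOCO1 for COL7A1 (0.0939), PLXND1 for COL8A1 (0.173), OXCT1 for COL10A1 (0.178) and SIGLEC15 for COL21A1 (0.357). These distances depend on the same 9 libraries and also on how many reads a gene had.

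Markers of other cell types were summed in TPM, because many collagens of these classes are stromal or cartilage products. In bulk libraries, fewer cells of a type and less RNA per cell cannot be told apart. Epithelial markers KRT8, KRT18, KRT19, CLDN4, CDH1 and EPCAM summed to 1235 to 1539 TPM in Empty. The sum was 730 to 1388 TPM in NF-YAl and 861 to 932 TPM in NF-YAs. Nearly all of it was keratins and CLDN4, while EPCAM and CDH1 were at or under 6.68 and 3.22 TPM. The markers called over Empty went both ways. EPCAM rose in NF-YAl (log2FC 2.16) and in NF-YAs (1.46), whereas CLDN4 fell in both (-1.25 and -1.02). KRT8 fell in NF-YAl (log2FC -1.33) and CDH1 in NF-YAs (-1.33). Of the prostate luminal markers, which summed to 5.92 to 11.4 TPM, the secretory genes KLK2 and KLK3 had at most 3 counts in any library. Of 7 fibroblast markers none passed 1 TPM, although their sum was higher in the lines (0.900 to 1.27 in NF-YAl and 0.990 to 1.49 in NF-YAs against 0.380 to 0.460 in Empty), and FAP had at most 3 counts everywhere. Of 6 chondrocyte markers, SOX9 gave nearly all of the 37.3 to 76.8 TPM, COMP had at most 3 counts in any library, and COL2A1 and ACAN stayed at or under 0.160 TPM. HAPLN1 fell in NF-YAs (log2FC -1.71, adjusted p = 0.000514, edgeR) and had a log2FC of 0.48 in NF-YAl. Between the lines, HAPLN1 was higher in NF-YAl (log2FC 2.19, adjusted p = 0.000238, edgeR). The 6 endothelial markers summed to 7.96 to 9.47 TPM in Empty, to 81.3 to 152 TPM in NF-YAl and to 39.7 to 58.3 TPM in NF-YAs, of which KDR was nearly all in the lines, while CDH5, TEK and CLDN5 were at or under 0.210 TPM. VWF fell in NF-YAl (log2FC -3.23, adjusted p = 1.92e-06, edgeR) and had a log2FC of -0.14 in NF-YAs. PECAM1 fell in NF-YAs (log2FC -1.73, adjusted p = 4.8e-05, edgeR) and had a log2FC of -0.17 in NF-YAl. Leukocyte markers summed to 14.6 to 36.2 TPM, nearly all LYZ, with at most 3 counts of CD3E in any library. The part of such cells in the collagen differences was not tested.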

How the data were processed

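Stranded total RNA libraries (TruSeq) from MTSs were aligned to RefSeq transcripts of hg19 (GRCh37) by Bowtie2 within RSEM. For each gene and transcript the authors deposited expected counts, TPM, effective lengths and, for transcripts, the percent of the gene's TPM. Strand use in counting was not given in the sources used here. Expected counts, deposited unnormalized, were rounded, filtered with filterByExpr and TMM scaled, and tested with edgeR 4.0.16 (quasi-likelihood F test) in R 4.3.3, with all 9 libraries in 1 fit and Benjamini-Hochberg adjustment over 17108 genes. A gene was called at an adjusted p under 0.01 and an absolute log2FC over 1. SE is the absolute log2FC over the square root of F. Chain ratios and transcript shares were compared by exact permutation tests with scipy 1.17.1. Scripts were tested on simulated data. Genes of the partner lists were named if called in any comparison, up to 4 by size of log2FC, at 5 CPM or more in the higher group and without overlap. The 10 collagens and all lists were chosen with earlier results of these data known. The libraries came from separate experiments per the study's methods. Alternatives were DESeq2 1.42.0, other scaling, filters, offsets and groups, a block for the replicate letter and leaving out each library. Positions are from GENCODE 44 lifted to GRCh37 and promoter windows from RefSeq. The libraries held 18076979 to 27163976 expected counts. Some genes of the lists are counted but not reported here by name.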

Additional observations from a re-analysis of the deposited data

Results flagged for a closer look

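COL6A3 stood out because its differences from Empty went opposite ways in the NF-YA lines. All 3 NF-YAl libraries (171 to 185 CPM) lay under and all 3 NF-YAs libraries (542 to 676 CPM) over the Empty libraries (288 to 400 CPM), and the lines compared with each other gave a log2FC of -1.73 (SE 0.133, adjusted p = 1.33e-05, edgeR). It held in every alternative run, at -1.78 to -1.62 when single libraries were left out.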

How the results depend on the processing

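Of 207 member log2FCs recomputed under DESeq2, RLE scaling, no filter, a minimum of 10 counts, an effective length offset, the replicate block or only the groups compared, 206 kept their direction and their side of the criteria. The exception was COL10A1 between NF-YAl and NF-YAs with only the 2 groups compared (adjusted p = 0.0133, edgeR), which left 0 genes called higher. The 10-count minimum removed COL9A2. Without the fold limit, 1 gene was called lower in NF-YAl than in Empty (COL6A3). Leaving out single libraries gave 246 of 270 log2FCs with the same call, 17 that lost it, 4 that gained it and 3 uncalled ones that changed sign, and the number called ranged from 5 to 6 higher and 0 to 1 lower in NF-YAl over Empty, 7 to 8 higher in NF-YAs over Empty, and 0 to 1 higher and 1 to 5 lower in NF-YAl against NF-YAs. The sign changed in NF-YAl against NF-YAs for COL7A1 (log2FC -0.29 without NF-YAl A and -0.01 without NF-YAs A, range -0.29 to 0.30) and COL8A1 (-0.035 without NF-YAl B, range -0.035 to 0.26). The cause was not tested. Pairing by the replicate letters was not shown: deviations of same-letter libraries had a mean correlation of 0.0862 (-0.065 to 0.253) over 7 pairs, of which 3 passed 0.1, against -0.0299 over 20 different-letter pairs, of which 1 did. The block for the letters kept 5 up-regulated collagens in NF-YAl, 8 in NF-YAs, and 1 higher and 5 lower between the lines. Depth limits COL9A2 and COL21A1 in Empty, at 8 to 28 counts.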
